A study of Homo sapiens with 8 samples.

Results

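The tripartite motif (TRIM) genes encode a large family of proteins named for a shared order of domains: a RING finger that recruits ubiquitin-conjugating enzymes, 1 or more B-box zinc-binding domains and a coiled coil through which the proteins pair. The end of the protein differs between members and sets what each one binds. Several members are induced by interferon and act against viruses or on the sensors of viral RNA, others sit at the sarcomere or the membrane of muscle fibres, and others act on chromatin, microtubules or centrosomes. A few members, among them TRIM14, TRIM16, TRIM44 and TRIM66, lack the RING finger, so the family is not made up of ubiquitin ligases alone. Members were taken by symbol, as TRIM followed by a number and at most a single letter other than L or P, which gave 48 of the 22808 gene symbols in the count table. Outside the rule lay 6 symbols that begin with TRIM: TRIM16L, TRIML2, TRIM52-AS1, TRIM51JP, TRIM60P14 and TRIM60P18.

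The samples were cultures of RD18, a human cell line of fusion-negative rhabdomyosarcoma, a soft-tissue tumour of cells committed to skeletal muscle. RD18 is a clonal derivative of the RD line, so all values describe a single clone. Vehicle cells received the transfection reagent lipofectamine alone, and treated cells received the microRNAs miR-449a and miR-340-5p. RNA was taken after 60 h, with 4 libraries in each group. The vehicle cells received no control RNA, so an effect of the microRNA pair and an effect of transfected RNA as such cannot be told apart. No label says whether the 4 libraries of a group came from separate cultures, so p-values measure the spread between these libraries, which may be technical. The libraries held 2567737 to 5569342 counts. Levels are given in CPM (counts scaled to the effective library size). Of the 10 listed markers of the labelled lineage, CHRNA1, MYOD1, TNNT2, DES and CDH15 averaged 814, 204, 131, 108 and 107 CPM in vehicle cells. MYH3, MYOG, PAX7 and MYH8 averaged 43.1, 10.4, 9.94 and 8.07 CPM there. MYF6, at 0.0561 CPM, had too few counts to test. Summed leukocyte markers stayed between 1.26 and 3.01 CPM in the 8 libraries, and summed endothelial markers between 0 and 1.29 CPM. Summed epithelial markers, nearly all KRT18, were 38.3 to 49 CPM in vehicle and 69.2 to 80.9 CPM in treated cells, and summed fibroblast markers were 146 to 155 and 200 to 225 CPM. Of the 4 tested fibroblast markers COL1A1 rose 1.72-fold, LUM fell 23.3-fold, and COL1A2 and THY1 did not pass. The part of these markers in the results was not tested. In bulk RNA, fewer cells that express a gene and less RNA per cell cannot be told apart.

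Of the 48 members, 37 passed the count filter and were tested with edgeR's quasi-likelihood test, adjusted by Benjamini-Hochberg over all 12366 tested genes. Of these 37, 17 rose, 9 fell and 11 did not pass at an adjusted p of 0.05. The share of members that rose was 45.9%, beside 33.4% of all tested genes, and the share that fell was 24.3%, beside 34.0%. The median log2 fold change was 0.16 over the tested members and 0.00 over all tested genes. No treated library fell within the vehicle range, or the reverse, for 22 members (59.5%), beside 58.9% of all tested genes, and 10 members (27%) changed at least 2-fold, beside 25.6%. Members changed about as often as other genes, with more of the calls higher and fewer lower; these shares were not compared by a test. The 32 members above the filter in all 8 libraries gave 15 higher, 7 lower and 10 not passed. TRIM22 passed the filter through the treated libraries alone and could therefore enter only as a member that differed. TRIM66 was above the filter in 1 vehicle and 4 treated libraries. For TRIM9 these numbers were 4 and 1, and for TRIM59 4 and 2. These genes entered through the group where they were higher, so their calls carry part of the same limit. None of them is among the 32.

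**Figure D1:**
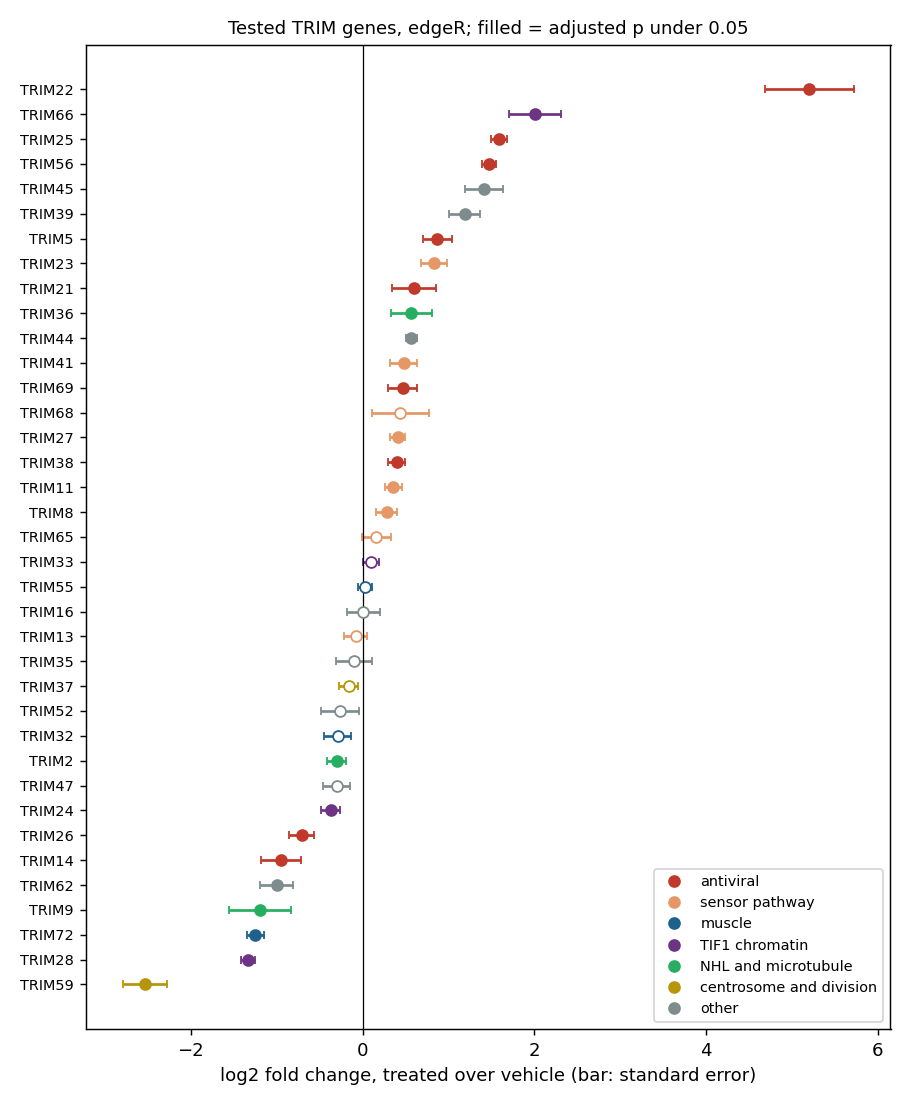
Log2 fold change of treated over vehicle cells (horizontal axis, with its standard error) for the 37 tested TRIM genes, coloured by group; filled points had an adjusted p under 0.05. TRIM22 lies far to the right at 5.20 and TRIM59 lowest at -2.53, and the antiviral members (red) lie mostly on the right while the tested muscle members (blue) lie at or below 0.03.

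Summed levels were taken over each group of members, where abundant genes weigh most. Antiviral members summed to 208 to 248 CPM in the vehicle libraries and 422 to 470 CPM in the treated libraries. Muscle members summed to 198 to 218 CPM in vehicle and 142 to 158 CPM in treated cells, a difference carried almost wholly by TRIM72, since TRIM55 measured 95.2 and 96.8 CPM. Members of the TIF1 group, which act on chromatin, summed to 290 to 311 CPM in vehicle and 177 to 208 CPM in treated cells. There TRIM28 carried most of the difference, while TRIM24 also fell, TRIM66 rose and TRIM33 did not pass. Neither these 3 sums nor any list of members was tested as a whole, since the members were chosen by name.

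Antiviral members are those known as interferon-induced or as restriction factors and activators of antiviral signalling. Of 11 such genes, listed by name with earlier results of these data known, 9 were tested, of which 7 rose and 2 fell. Their median log2 fold change was 0.60. These shares, 77.8% and 22.2%, stand beside 33.4% and 34.0% of all tested genes. Without TRIM22, which could enter only as a gene that differed, 6 of 8 rose and 2 fell, with a median of 0.54. TRIM6 had too few counts for the test, with 3 counts over the vehicle group and 0 over the treated group, and TRIM34 was not analysed here.

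TRIM22, an interferon-induced restriction factor of retroviruses and hepatitis viruses on chromosome 11 (5689689 to 5737089, GRCh38), changed most. The vehicle libraries held 0, 3, 0 and 0 counts of it, and the treated ones 49, 52, 30 and 20, which is 0 to 0.777 CPM against 6.44 to 10.3 CPM. Every treated library lay above every vehicle library. The ratio of summed counts was 42.2, with an exact 95% interval of 14.2 to 207 that covers counting error only (edgeR adjusted p = 2.81e-13). All 3 vehicle counts came from replicate 2, and without it the fitted log2 change went from 5.20 to 8.12, a value that then rests on the prior count and is no measure of size. TRIM22 stayed a low gene after the rise, at 1.43 ± 0.267 CPM per kilobase of annotated exon (SD, n = 4).

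TRIM25, the ligase that attaches ubiquitin chains in the activation of the RNA sensor RIG-I (chromosome 17, 56836387 to 56914080), was more abundant per length, at 4.64 CPM per kilobase in vehicle cells. It measured 45.6, 40.1, 43.3 and 47.2 CPM in vehicle and 142, 135, 138 and 113 CPM in treated cells. The groups lay well apart, with a fold change of 3.01 (log2 1.59, SE 0.09, edgeR adjusted p = 2.06e-23). TRIM56, an antiviral ligase linked to the DNA-sensing adaptor STING and to the Toll-like receptor TLR3 (chromosome 7, 101085439 to 101097967), measured 63.2, 50.2, 67.4 and 66.8 CPM in vehicle. In treated cells it measured 176, 179, 164 and 164 CPM, 2.77-fold higher (log2 1.47, SE 0.08, adjusted p = 1.22e-23). Per kilobase the levels of TRIM25 and TRIM56 went from 4.64 and 5.54 to 13.9 and 15.3 CPM, so both genes moved by similar factors.

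TRIM5, which recognises incoming retroviral capsids (chromosome 11, 5663557 to 5938619), measured 14.2, 11.7, 13.3 and 9.29 CPM in vehicle and 24, 23.5, 20 and 18.7 CPM in treated cells. It rose 1.83-fold with no overlap (log2 0.87, SE 0.17, adjusted p = 8.6e-06). The annotated span of TRIM5 covers that of TRIM22 on the opposite strand, but the exons of the 2 genes share no base. TRIM38, a regulator that restrains and tunes innate signalling, measured 56.1, 50, 53.7 and 43.5 CPM in vehicle and 68.3, 66.7, 66.4 and 64.1 CPM in treated cells (1.32-fold higher, adjusted p = 0.000304). Its groups did not overlap either.

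TRIM69 and TRIM21 rose with overlapping groups. TRIM69, an interferon-induced gene, measured 17.2, 12.9, 11.7 and 15.6 CPM in vehicle and 16.5, 19.6, 20 and 22.9 CPM in treated cells. Its lowest treated library lay below its highest vehicle library, and the 1.38-fold rise (adjusted p = 0.0124) did not pass without vehicle replicate 3 (0.0719). TRIM21, the cytosolic Fc receptor that targets antibody-coated virus, measured 9.20, 5.96, 5.84 and 3.77 CPM in vehicle and 10.1, 5.80, 9.98 and 11.3 CPM in treated cells. Treated replicate 2 lay among the vehicle libraries, and the 1.52-fold rise (edgeR adjusted p = 0.0363) did not pass with DESeq2 (0.0621). Nor did the TRIM21 rise pass without vehicle replicate 2 (0.063), 3 (0.071) or 4 (0.163) or without treated replicate 1 (0.106), 3 (0.0606) or 4 (0.0986).

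Against the direction of the other antiviral members, TRIM14 and TRIM26 fell. TRIM14, a mitochondrial adaptor of RIG-I signalling that has no RING finger (chromosome 9, 98069275 to 98119212), measured 16.3, 13.7, 10.6 and 11.3 CPM in vehicle and 7.28, 8.36, 4.13 and 5.15 CPM in treated cells. All treated libraries lay below all vehicle libraries, a 1.93-fold fall (log2 -0.95, SE 0.23, adjusted p = 0.000217). TRIM26, which modulates interferon signalling and lies in the major histocompatibility region (chromosome 6, 30184455 to 30213427), measured 25.9, 22.5, 35.3 and 26.4 CPM in vehicle. In treated cells it measured 16.7, 18.3, 15.8 and 16.4 CPM, 1.64-fold lower (log2 -0.71, SE 0.15, adjusted p = 3.33e-05), again with no overlap. In the annotation 422 bases of TRIM14 exons (7.72%) are shared with NANS on the opposite strand, and NANS fell 1.34-fold; the part of such shared bases in the TRIM14 value was not tested.

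**Figure D2:**
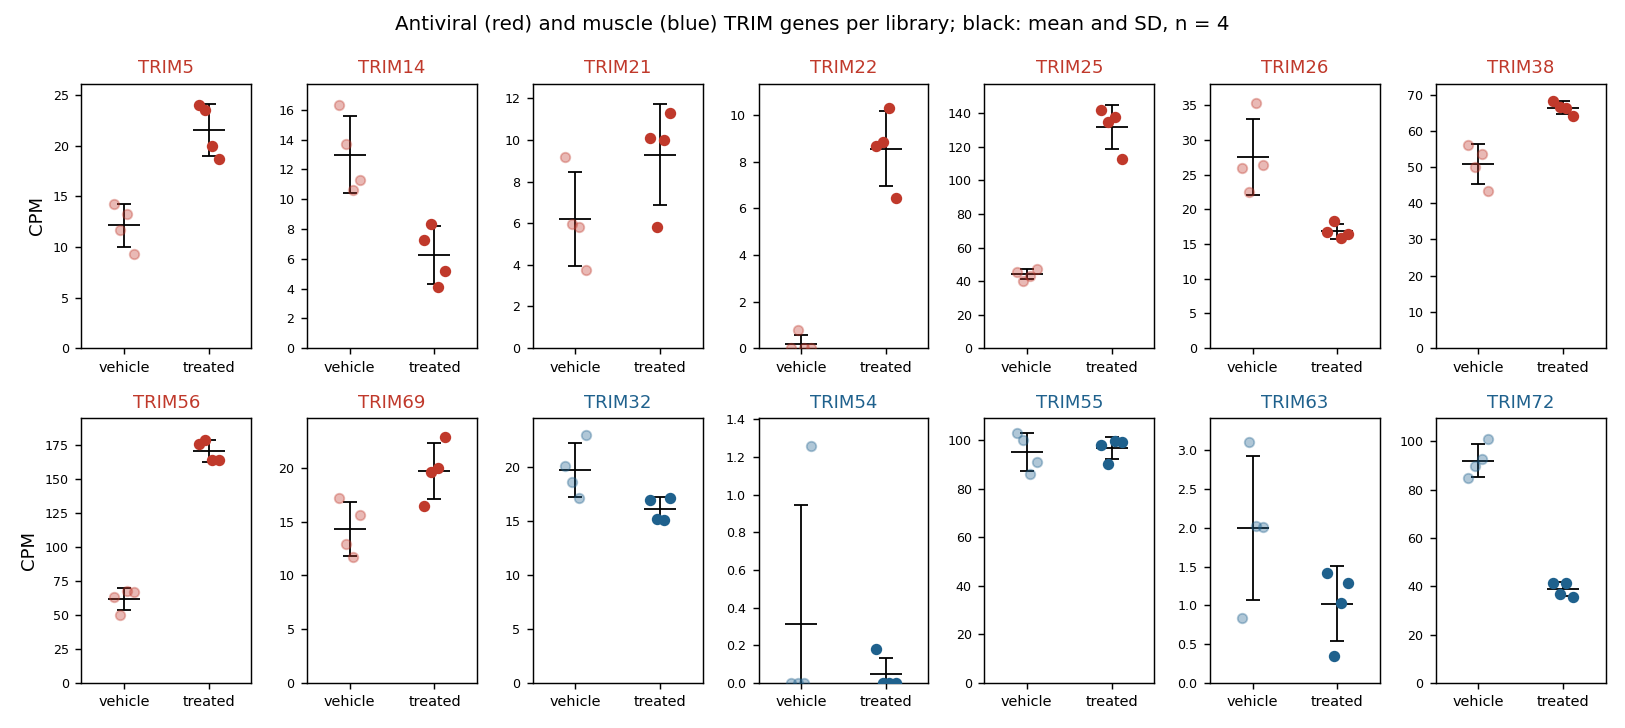
CPM (vertical axes, each starting at 0) of the 9 tested antiviral members in red and the 5 muscle members in blue; each point is a library, pale for vehicle and full for treated, and black marks show the mean and SD of 4 libraries. TRIM22, TRIM25 and TRIM56 separate upward, TRIM14, TRIM26 and TRIM72 separate downward, and TRIM55 stays at means of 95.2 and 96.8.

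Promoters of the antiviral members were searched for the core of the interferon-stimulated response element, the site bound by the STAT and IRF factors that interferon activates. The word was GAAANNGAAA, read on both strands (TTTCNNTTTC on the other), where occurrences may overlap. RefSeq promoter entries (GRCh38.p14, 250 bases before to 50 after the start) matched 37 of the 48 members, and 8 of these 37 genes had the word. Among the 9 antiviral members with an entry 5 had it (55.6%), and among the 28 other members 3 did (10.7%). Over all 35116 promoter entries 3.57% held the word, and of the 8750 tested genes with an entry 3.82% did. A match is a description of the sequence and does not show that a factor binds there. Positions count the first base of the transcript as 1 and the base before it as -1. The stretches of the 5 antiviral members are shown because 3 of these genes rose and 2 fell, with the word in capitals and the sense strand of each gene written 5′ to 3′.

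TRIM5, chr11:5685075-5685174, minus strand: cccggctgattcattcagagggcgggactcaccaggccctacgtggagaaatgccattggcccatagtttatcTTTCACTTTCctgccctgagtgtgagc

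TRIM21, chr11:4393663-4393692, minus strand, at the start of the transcript: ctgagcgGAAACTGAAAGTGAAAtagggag

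TRIM69, chr15:44736426-44736525, plus strand: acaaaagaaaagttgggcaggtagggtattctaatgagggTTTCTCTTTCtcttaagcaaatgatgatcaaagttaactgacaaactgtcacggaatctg

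TRIM14, chr9:98119223-98119322, minus strand: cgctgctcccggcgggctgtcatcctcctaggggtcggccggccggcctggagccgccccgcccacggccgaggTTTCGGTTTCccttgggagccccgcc

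TRIM26, chr6:30213535-30213634, minus strand: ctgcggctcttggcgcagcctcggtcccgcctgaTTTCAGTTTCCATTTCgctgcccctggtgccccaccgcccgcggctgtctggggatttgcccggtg

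Antiviral members with the word included genes that rose and genes that fell, and no test of a relation was made. TRIM5 (word at -27), TRIM21 (2 overlapping words at 18 and 24) and TRIM69 (word at -62) rose by 0.87, 0.60 and 0.47 log2 units. The groups of TRIM21 and TRIM69 overlapped, and both calls were lost in some of the other fits given above. TRIM14 carries the word at -26, almost where TRIM5 does, and fell, as did TRIM26 with overlapping words at -194 and -188. TRIM25, TRIM56 and TRIM38 rose and hold no such word in this window, so both antiviral members that fell are among those with the word. The promoter of TRIM22 was not analysed here.

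**Figure D3:**
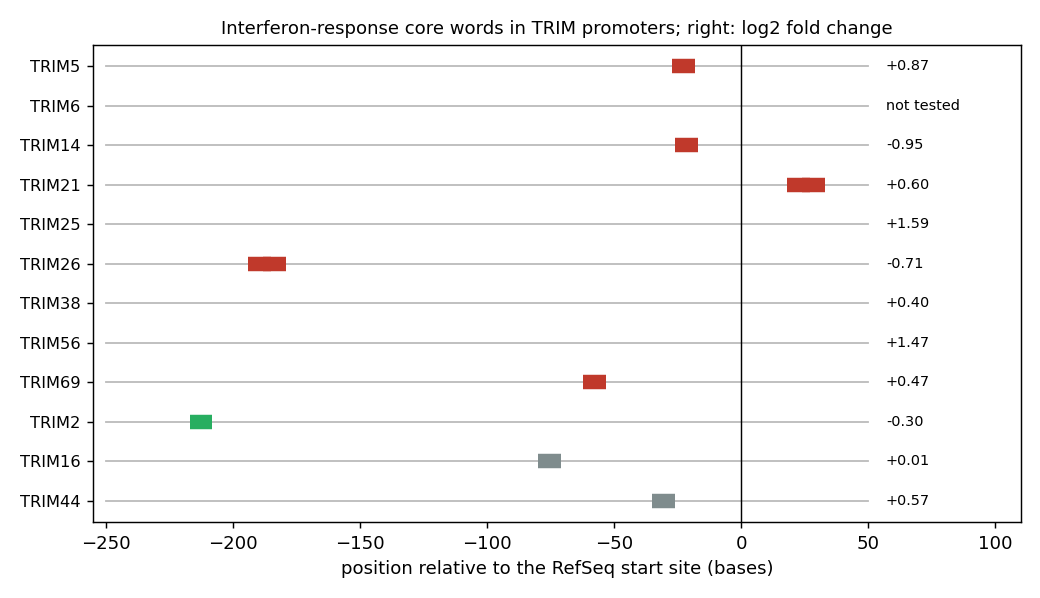
Position of the interferon-response core word (thick bars) relative to the RefSeq start site (horizontal axis, in bases; the grey line is the window searched) for the 9 antiviral members with a promoter entry and the other 3 members with a word; the log2 fold change stands at the right. TRIM5 and TRIM14 carry the word at nearly the same place, at -27 and -26, and changed by 0.87 and -0.95.

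Muscle members were compared with these. The muscle RING finger proteins MuRF1, MuRF2 and MuRF3 (genes TRIM63, TRIM55 and TRIM54) bind titin and myosin at the sarcomere, and MuRF1 drives the breakdown of myofibrils in atrophy. TRIM72, also known as MG53, patches torn muscle membranes, and TRIM32, mutated in a limb-girdle muscular dystrophy, acts on sarcomere and cytoskeletal proteins. Of these 5 genes 3 were tested. TRIM72 fell (33.3% of those tested, beside 34.0% of all tested genes) and none rose (beside 33.4%). TRIM55 and TRIM32 did not pass.

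TRIM72 (chromosome 16, 31214021 to 31231537) measured 84.9, 89.6, 92.5 and 101 CPM in vehicle and 41.2, 36.7, 41.3 and 35.7 CPM in treated cells. The groups were far apart, with a 2.38-fold fall (log2 -1.25, SE 0.10, edgeR adjusted p = 7.9e-18). In the same libraries 9 of 9 tested muscle lineage markers fell, beside 34.0% of all tested genes. The summed markers went from 1408 to 1490 CPM in vehicle to 899 to 947 CPM in treated cells. The part of this in the TRIM72 value was not tested. TRIM55 measured 103, 100, 86.2 and 90.9 CPM in vehicle and 98.2, 90.1, 99.8 and 99.1 CPM in treated cells. Its groups overlapped throughout (log2 0.03, SE 0.08, adjusted p = 0.787). TRIM32 measured 20.1, 18.6, 17.1 and 22.9 CPM in vehicle and 16.9, 15.2, 15.1 and 17.1 CPM in treated cells. The groups only just failed to overlap, and the difference did not pass (log2 -0.29, SE 0.16, adjusted p = 0.104). The difference in response between TRIM72 and the other muscle genes was not tested.

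The other MuRF genes were near the floor. For TRIM63 the vehicle libraries held 2, 12, 9 and 8 counts and the treated ones 8, 2, 3 and 4, which makes 31 against 17. Its count ratio of vehicle to treated was 2.17 (exact 95% interval 1.17 to 4.19, counting error only), and with no filter on counts it had an adjusted p of 0.139. TRIM54 had 5 counts over the vehicle group, all in replicate 4, and 1 over the treated group. Neither count settles whether these genes changed: with no filter TRIM54 had an adjusted p of 0.241.

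Beside them, a list of 18 genes of muscle ubiquitination, atrophy signalling and MuRF substrates had 13 tested members, of which 4 rose and 6 fell (median log2 fold change -0.32). The shares were 30.8% higher and 46.2% lower, beside 33.4% and 34.0% of all tested genes. In this list the 4 with the smallest adjusted p all rose. SQSTM1, an autophagy receptor that binds MuRF2, rose 4.87-fold, and NBR1, a related receptor at the titin kinase, rose 1.88-fold. FBXO21, an F-box gene, rose 2.05-fold, and FBXO32, which encodes atrogin-1, the atrophy ligase usually named with MuRF1, rose 3.09-fold from 11.2 ± 3.24 to 33.7 ± 5.35 CPM (SD, n = 4). The 6 that fell were the sarcomere genes TTN, MYBPC2, MYL1 and MYLPF, at 5.49-fold to 6.87-fold lower, and the atrophy regulators FOXO1 and FOXO3, at 2.04-fold and 1.41-fold lower; these were named after their values were seen.

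Partners of the antiviral members rose more often than they fell. Of 21 tested genes of RIG-I, STING and ISG15 signalling, 13 rose, 4 fell and 4 did not pass (median 0.54). The shares were 61.9% higher and 19% lower, beside 33.4% and 34.0% of all tested genes, and were not compared by a test. ISG15, a ubiquitin-like modifier that is joined to TRIM25 among other proteins, rose 3.5-fold. UBE2L6, its conjugating enzyme, rose 3.19-fold. The RNA sensor genes IFIH1 and DDX58, which encode MDA5 and RIG-I, rose 10.8-fold and 4.72-fold. The 4 that fell, named after their values were seen, were TMEM173 and MB21D1, which encode STING and the DNA sensor cGAS, at 1.45-fold and 2.25-fold lower, the ubiquitin-conjugating enzyme gene UBE2N (1.89-fold) and TAB2 (1.81-fold). Among TRIM proteins known under other symbols, PML, the scaffold of nuclear bodies, rose 1.7-fold and MID1, a microtubule-bound ligase, 2-fold. MEFV had too few counts to test and MID2 was not analysed here.

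Members that act on sensors and signalling without being interferon-induced in the main formed a further list of 12, of which 8 were tested. Of these, 5 rose (62.5%, beside 33.4% of all tested genes), none fell (beside 34.0%) and 3 did not pass. TRIM23, which joins ubiquitin to NEMO and acts in virus-induced autophagy, rose 1.77-fold from 15.3 ± 2.07 to 26.9 ± 2.69 CPM (adjusted p = 2.97e-06). TRIM41, TRIM27, TRIM11 and TRIM8 rose 1.4-fold, 1.33-fold, 1.28-fold and 1.21-fold. For TRIM8 the call did not survive DESeq2 (adjusted p = 0.0529), nor the removal of vehicle replicate 3 (0.195), vehicle replicate 4 (0.0533) or treated replicate 2 (0.151). TRIM13, an endoplasmic reticulum ligase that acts on MDA5 signalling, TRIM65, which acts on MDA5 itself, and TRIM68 had adjusted p of 0.579, 0.414 and 0.234. TRIM4 had 4 vehicle and 2 treated counts and TRIM31 had 0 and 2.

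The TIF1 members link chromatin marks to transcription. TRIM28, the corepressor KAP1 that zinc finger proteins recruit to silence repeats, was the most abundant member per kilobase in vehicle cells. It measured 164, 169, 173 and 163 CPM in vehicle and 65, 71.1, 64.4 and 65 CPM in treated cells. This 2.51-fold fall (log2 -1.33, SE 0.08, adjusted p = 3.99e-23) left no overlap. TRIM66, a RING-less member, went the other way, from 1.26, 1.81, 2.25 and 3.77 CPM to 10.8, 7.68, 10.7 and 9.66 CPM, 4.02-fold higher (adjusted p = 4.07e-08). All treated libraries exceeded all vehicle libraries. Only 1 vehicle library was above the filter, so TRIM66 entered the test through its treated level. TRIM66 shares 94 exonic bases (0.8%) with RPL27A on the opposite strand, a gene that fell 1.41-fold. TRIM24, a nuclear receptor cofactor, fell 1.29-fold (adjusted p = 0.00185; 0.0554 with library size as the only scaling). TRIM33, which acts with SMAD4, did not pass (adjusted p = 0.358), but passed as higher with library size alone (0.0267).

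TRIM28 partners were not moved in a single direction. Of 10 tested partners of the TIF1 proteins, 3 rose and 5 fell (median -0.14). The shares were 30% and 50%, beside 33.4% and 34.0% of all tested genes. CBX5, heterochromatin protein HP1 alpha, fell 2.55-fold, whereas SETDB1, the histone methyltransferase that TRIM28 recruits, rose 1.77-fold. ATRX and MORC3, both chromatin ATPases, rose 1.54-fold and 1.97-fold.

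TRIM59, a membrane-anchored member that is high in dividing tumour cells (chromosome 3, 160432445 to 160485773), had the deepest fall among the 37 tested members. It measured 20.1, 13.2, 19.1 and 16.6 CPM in vehicle and 3.20, 2.05, 1.38 and 5.47 CPM in treated cells. No treated library came near the vehicle range, and the fall was 5.78-fold (log2 -2.53, SE 0.26, adjusted p = 5.48e-13). Only 2 treated libraries were above the filter, so TRIM59 entered the test through its vehicle level. TRIM59 shares 1561 exonic bases (19.8%) with SMC4 on the opposite strand, a condensin gene that fell 3.35-fold from 1235 ± 58.0 to 368 ± 28.5 CPM. Whether reads of SMC4 enter the TRIM59 count was not tested. TRIM37, which limits centrosome material by marking CEP192 and related proteins, did not pass (adjusted p = 0.208), at 41.9 ± 4.35 and 38.1 ± 2.39 CPM. Of its 8 tested centrosome partners 6 fell (75%, beside 34.0% of all tested genes) and 2 did not pass (CNTROB 0.187, CDK5RAP2 0.454). Those that fell included PLK4 at 6.95-fold, STIL at 4.26-fold, CEP152 at 4.23-fold and SASS6 at 2.05-fold lower.

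Members with an NHL domain or a microtubule-binding box were mostly low. TRIM2, a ligase for neurofilament, fell 1.23-fold (adjusted p = 0.0166), with overlapping groups, and did not pass with library size alone (0.21). Nor did TRIM2 pass when vehicle replicate 2 (0.0822), vehicle replicate 3 (0.0564) or treated replicate 2 (0.057) was removed. TRIM9, a synaptic member, measured 5.02, 4.14, 4.94 and 4.52 CPM in vehicle and 2.31, 2.73, 1.03 and 1.29 CPM in treated cells, a 2.28-fold fall (adjusted p = 0.0028) with no overlap. Only 1 treated library was above the filter, so TRIM9 entered the test through its vehicle level. Of the neuronal markers, 2 were tested and they moved in opposite directions, MAP2 3.27-fold lower and ENO2 3.54-fold higher. Their sum, nearly all MAP2, was 351 to 393 CPM in vehicle and 121 to 149 CPM in treated cells, and its part in the TRIM9 value was not tested. TRIM36 rose 1.49-fold (adjusted p = 0.0338), a call that DESeq2 did not make (0.0561). It also went when vehicle replicate 1 (0.0933), vehicle replicate 3 (0.104) or treated replicate 1 (0.125) was removed. TRIM71, an RNA-binding stem cell protein, did not reach the filter. It had 16, 9, 17 and 19 vehicle counts and 4, 3, 3 and 1 treated counts, a ratio of 6.61 lower (exact 95% interval 3.45 to 13.9), and the groups did not overlap. With no filter on counts TRIM71 was called lower (adjusted p = 8.3e-07). TRIM3 and TRIM46 had 12 and 30 vehicle counts and 35 and 18 treated counts.

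Of the members in none of these groups, 8 were tested, and 3 of these rose (37.5%, beside 33.4% of all tested genes). A fall was called for 1 of the 8, beside 34.0% of all tested genes, and 4 did not pass. These shares were not compared by a test. TRIM45, a regulator of NF-kB and p53, measured 4.6, 9.06, 5.61 and 5.02 CPM in vehicle and 14.0, 17.4, 15.1 and 20 CPM in treated cells (2.67-fold higher, adjusted p = 6.05e-08). TRIM39, which acts on apoptosis and the cell cycle, measured 12.6, 12.9, 6.96 and 7.28 CPM in vehicle and 21.3, 24.1, 19.3 and 23.2 CPM in treated cells (2.29-fold higher, adjusted p = 8.17e-08). Both had every treated library above every vehicle library. TRIM39 shares 12.2% of its exonic bases with HCG18 on the opposite strand, which did not pass (adjusted p = 0.735), and 29.5% with the read-through gene TRIM39-RPP21.

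TRIM62, a tumour suppressor candidate in epithelia, measured 23.0, 12.7, 18.4 and 17.1 CPM in vehicle and 8.70, 8.70, 7.23 and 10.3 CPM in treated cells, 2-fold lower (log2 -1, SE 0.19, adjusted p = 1e-05). TRIM44, a RING-less member, measured 156, 165, 182 and 165 CPM in vehicle and 265, 243, 253 and 237 CPM in treated cells, 1.49-fold higher with no overlap (adjusted p = 1.23e-11). TRIM16, TRIM35, TRIM47 and TRIM52 did not pass, with adjusted p from 0.0938 for TRIM47 to 0.965 for TRIM16, whose reads may be shared with its near copy TRIM16L. TRIM47 shares 51.5% of its exonic bases with an antisense gene, AC087289.5, not analysed here. TRIM7, a glycogenin partner, had 2, 4, 4 and 6 vehicle counts and none in any treated library, at least 6.36-fold lower when 3 counts per group are taken as the floor, while the exact 95% interval of the count ratio begins at 4.6-fold lower. It lay under the filter and was called lower with no filter (adjusted p = 0.000629). TRIM58 and TRIM73, the latter with near-identical copies, had 10 and 2 vehicle counts and 5 and 4 treated counts.

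Levels of different members were compared per kilobase of annotated exon, which is a rough scale because it joins the exons of all transcripts. In vehicle cells TRIM28 led with 41.4 ± 1.13 CPM per kilobase (SD, n = 4), followed by TRIM55 with 30.9 ± 2.60, TRIM44 with 12.8 ± 0.826 and TRIM72 with 10.8 ± 0.794. These neighbours were further apart than their SDs. TRIM37 (7.65 ± 0.793), TRIM33 (7.28 ± 0.736) and TRIM27 (6.89 ± 0.283) came next and did not differ beyond their spread. In treated cells TRIM55 led with 31.4 ± 1.47, followed by TRIM44 with 19.1 ± 0.953, TRIM28 with 16.5 ± 0.789, TRIM56 with 15.3 ± 0.704 and TRIM25 with 13.9 ± 1.35. The gaps from TRIM56 to TRIM28 and to TRIM25 were smaller than the sums of their SDs. A muscle member was thus the family's highest gene per length after treatment, and 2 antiviral members had joined the 5 highest.

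**Figure D4:**
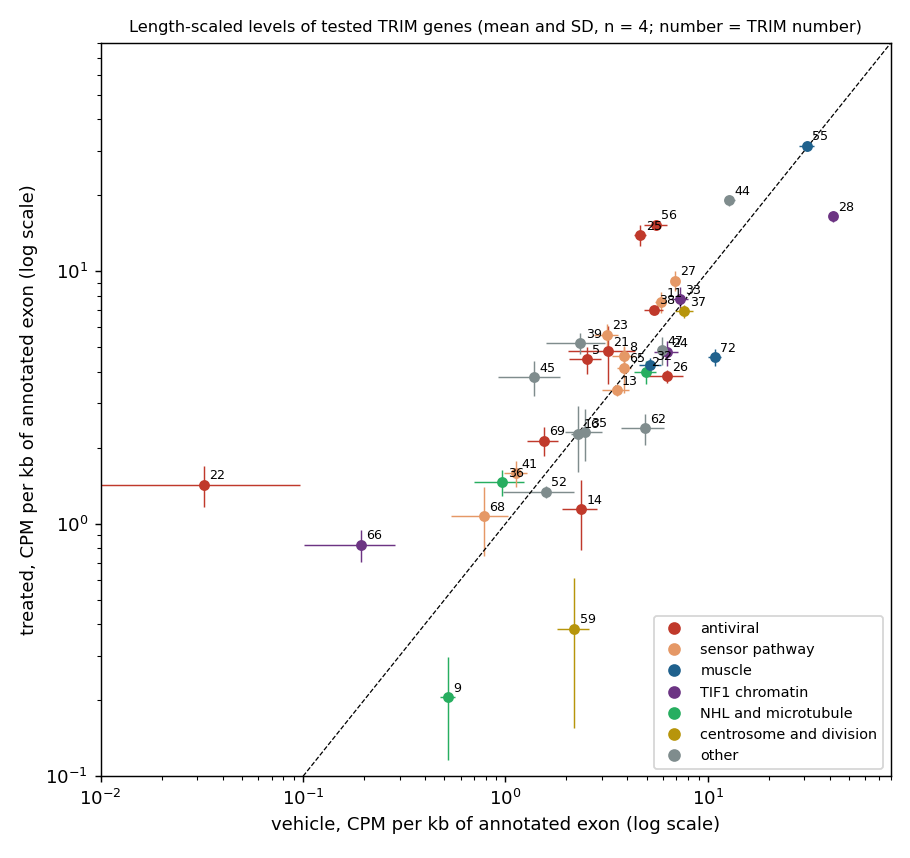
CPM per kilobase of annotated exon in vehicle (horizontal, log scale) and treated cells (vertical, log scale) for the 37 tested members, with the SD of 4 libraries (the vehicle bar of TRIM22 reaches 0 and runs off the left edge); each point is labelled with its TRIM number and the dashed line marks equal levels. TRIM55 (30.9 and 31.4) sits on the line, TRIM28 (41.4 and 16.5) below it and TRIM25 and TRIM56 above it.

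Position in the genome was a further feature that the rule did not use. On chromosome 11 between TRIM21 (from 4384897) and TRIM66 (to 8682694) lie 7 members: TRIM21, TRIM68, TRIM6, TRIM5, TRIM22, TRIM3 and TRIM66. Of the 5 tested, 4 rose (80%, beside 33.4% of all tested genes) and TRIM68 did not pass (adjusted p = 0.234), with a median of 0.87. Among those that rose, TRIM22 and TRIM66 entered the test through their treated levels. Both windows named here were bounded by members themselves, and no relation to position was tested. On chromosome 6 between TRIM38 (from 25962802) and TRIM39 (to 30343729) lie 5 members, of which TRIM38, TRIM27 and TRIM39 rose, TRIM26 fell and TRIM31 was too low to test. The shares of tested members were 75% higher and 25% lower, beside 33.4% and 34.0% of all tested genes. The antiviral members TRIM38 and TRIM26 of that region moved in opposite directions.

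The transfected microRNAs bind messages mainly through bases 2 to 8, the seed, which is in capitals here (RefSeq, GRCh38.p14). Their seeds differ, and so do the words that pair with them.

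hsa-miR-449a: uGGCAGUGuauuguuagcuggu

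hsa-miR-340-5p: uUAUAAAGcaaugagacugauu

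The longest annotated 3′ untranslated region (GENCODE 29) of each gene was searched on the sense strand for the 7-base words that pair with these seeds, CTTTATA (miR-340-5p) and CACTGCC (miR-449a). All 37 tested members had such a region of at least 50 bases. The miR-449a word was present in 8 of 37 (21.6%), beside 19.9% of 10550 tested genes, and the miR-340-5p word in 11 (29.7%), beside 20.2%. Members with the miR-449a word had a median log2 fold change of 0.42, with 4 of 8 higher and 1 of 8 lower. All tested genes with that word had a median of -0.11, with 28.3% higher and 40.3% lower. Members with the miR-340-5p word had a median of 0.10, with 5 of 11 higher (45.5%) and 1 of 11 lower (9.09%), beside 0.04, 35.2% and 34.1% over all genes with it. The 20 members with neither word had a median of 0.08, with 9 higher (45%) and 7 lower (35%), beside 0.05, 36.6% and 32% over all genes with neither. These groups of members are small, and none of the shares was tested. Of the 9 members that fell 7 (77.8%) held neither word, beside 61.2% of all genes that fell: TRIM9, TRIM14, TRIM24, TRIM26, TRIM28, TRIM59 and TRIM72. With all annotated 3′ regions searched, TRIM9 and TRIM59 also held a word. Regions with a word were longer, at a median of 2663 bases over the 17 members with either word against 1679 over the 20 with neither.

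The sites of 5 members are shown. The miR-449a word stands there in genes that rose, fell or did not pass. The miR-340-5p word is shown only in TRIM25 and TRIM56, which rose. TRIM2, which fell, and TRIM33 and TRIM37, which did not pass, also held the miR-340-5p word. Capitals mark the 7 bases that pair with the seed. In TRIM62, TRIM21, TRIM25 and TRIM56 the word is followed by an A, the 8-base form of a site.

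TRIM62, miR-449a, chr1:33147125-33147154, minus strand, 2-fold lower: cctcctgggacCACTGCCacctgcaagagc

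TRIM21, miR-449a, chr11:4385252-4385281, minus strand, 1.52-fold higher: ctttctctggaCACTGCCactctccccatt

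TRIM32, miR-449a, chr9:116699902-116699931, plus strand, not passed: tttaaaagatgCACTGCCcaaataggacac

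TRIM25, miR-340-5p, chr17:56887918-56887947, minus strand, 3.01-fold higher: tgatttgtatcCTTTATAataaaactaatc

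TRIM56, miR-340-5p, chr7:101094473-101094502, plus strand, 2.77-fold higher: aggaaatacacCTTTATAagtaatactcaa

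In the longest regions, TRIM62 was the only member among the 9 that fell to hold the miR-449a word, and TRIM2, with 3 words, the only one of them to hold that of miR-340-5p. TRIM44 held 2 words of each in a region of 11622 bases and rose. TRIM71, below the filter, held 2 miR-449a words and was lower by its counts. A word in a sequence is no proof of pairing in these cells.

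**Figure D5:**
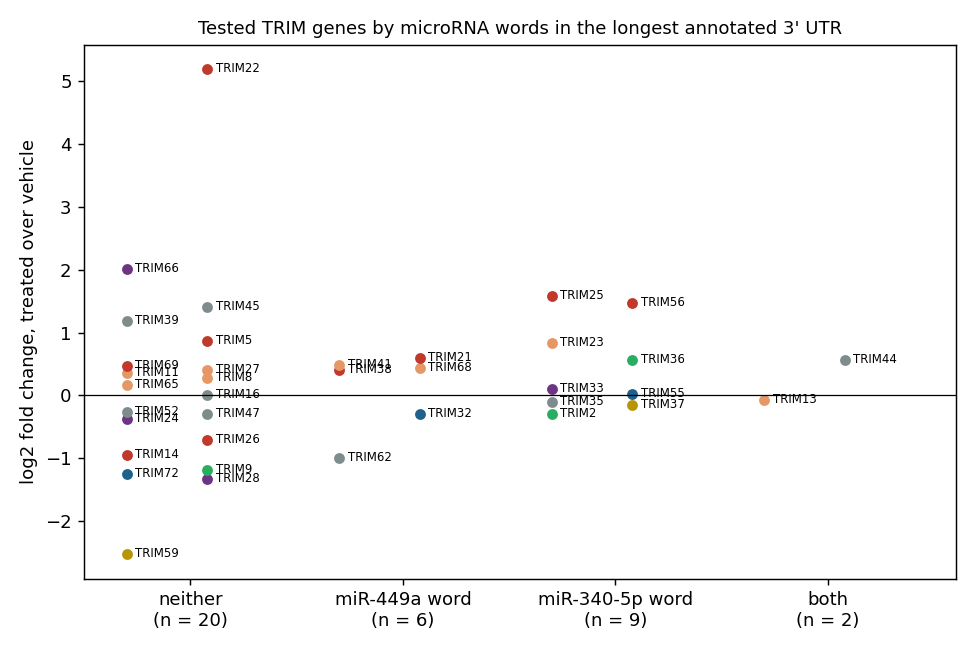
Log2 fold change of treated over vehicle cells (vertical axis) for the 37 tested members, in columns by the microRNA word in the longest annotated 3′ untranslated region (neither 20, miR-449a alone 6, miR-340-5p alone 9, both 2); colours give the groups as in the plot of fold changes. The deep falls of TRIM59, TRIM28 and TRIM72 lie in the column with neither word, and TRIM25 and TRIM56 lie high in that of miR-340-5p.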

How the data were processed

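The authors deposited raw counts by gene symbol for 8 libraries, prepared with a stranded mRNA kit per the labels. HTSeq 0.5.3p3, TopHat2 2.0.13, DESeq2, SAMtools 0.1.19.24 and the build GRCh38 appear in the submitters' processing notes without roles. Which annotation and strand setting were used is not given in the sources used here, and overlapping genes may share reads. Columns were matched by the library code in each sample's description.

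Genes were kept by filterByExpr (minimum count 10, total 15), scaled by TMM and compared by the quasi-likelihood test of edgeR 4.0.16 under R 4.3.3 (robust glmQLFit with group as the only term, two-sided, threshold 0.05). CPM uses TMM-effective library sizes; standard errors come from dividing the log2 change by the root of the F statistic. Intervals for low counts are exact (Clopper-Pearson) and cover counting error only. On simulated counts for this comparison with 12363 genes, the test found 43 of 67 genes set to a 1.5-fold change. It found 65 of 67 at 2-fold and 65 of 66 at 4-fold, and called 6 of the 12163 genes left unchanged. Far fewer genes were changed there than were called in the data, and all genes shared a single dispersion. The share found in the data may therefore differ. Duplicate libraries were checked by chi-square per gene between replicates (2.21 to 5.89, where sampling noise gives about 1), and all were kept apart. Alternatives were DESeq2 1.42.0, limma-voom 3.58.1, other scalings and filters, a replicate block and leaving out each library. Stricter thresholds were an adjusted p under 0.01 and a 2-fold minimum. Named were all antiviral and muscle members, other members changed at least 2-fold in full, the rest in brief, and up to 4 partners per list with the smallest adjusted p. Members, lists and motif were chosen with earlier results of these data known. Symbols of all 48 members matched GENCODE 29 (GRCh38).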

Additional observations from a re-analysis of the deposited data

Results flagged for a closer look

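In 3 of 74 groups of 4 libraries (each tested member in each condition) a single library lay apart from the others by Dixon's criterion on its gap to the nearest. Chance gives about 1 in 20 groups. TRIM22 in vehicle replicate 2 stood at 0.777 CPM where the other vehicle libraries had 0, which comes from 3 counts. TRIM28 in treated replicate 2 stood at 71.1 CPM against 64.4 to 65 CPM, and TRIM41 in vehicle replicate 2 at 17.3 CPM against 13.4 to 13.6 CPM.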

How the results depend on the processing

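All 37 tested members kept their direction wherever a call was made, under every alternative that gave a value; 21 single calls were lost and 1 was gained, for TRIM2, TRIM8, TRIM21, TRIM24, TRIM36, TRIM69 and TRIM33, as given beside these genes. Members called higher ranged from 13 to 16 and lower from 8 to 10 with a library left out, against 17 and 9, and antiviral members called higher from 5, without vehicle replicate 3, to 7. Over all genes the fits with a library left out gave 3942 to 4142 higher and 4004 to 4173 lower. At an adjusted p under 0.01, which the 21 lost calls leave out, 13 members were called higher, 8 lower and 5 antiviral members higher. Over all genes that threshold gave 3562 higher and 3628 lower. With a 2-fold minimum, 6 members were called higher, 4 lower and 3 antiviral members higher, and over all genes 1542 higher and 1622 lower. DESeq2 gave 14 higher and 9 lower, and no filter 17 and 11, with TRIM7 and TRIM71 added. Over all genes DESeq2 gave 3942 higher and 3888 lower, and no filter 4679 and 4386. Library size alone moved all genes by a median of 0.138 log2 units and gave 18 higher and 7 lower. Over all genes this scaling gave 4890 higher and 3453 lower. With the replicate block 17 members were higher and 9 lower, with 4102 and 4171 over all genes. Same-numbered libraries correlated by 0.013 to 0.056 in their deviations, and 3 of 4 vehicle libraries correlated best with their own number. These values do not settle whether the numbers mark pairs, and the main fit did not treat them as pairs. Searching all annotated 3′ regions in place of the longest gave 21 members with either word against 17. The depth limits members under a few CPM, such as TRIM63 and TRIM54.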

Other observations

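Symbols that begin with TRIM but lay outside the rule were not all quiet. TRIM16L, a shortened near-identical relative of TRIM16, rose 2.68-fold from 7.94 ± 1.43 to 22.0 ± 3.59 CPM (SD, n = 4; edgeR adjusted p = 9.82e-10), while TRIM16 measured 12.9 ± 0.972 and 12.8 ± 3.75 CPM; reads shared by the copies could fall to either, so both values are uncertain. TRIM52-AS1, an antisense transcript, fell 1.97-fold from 13.4 ± 2.18 to 7.23 ± 1.65 CPM (edgeR adjusted p = 7.27e-05), while TRIM52 did not pass (0.299).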
